A study of Mus musculus with 6 samples.

Results

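The genes described are 8 transcripts of the common gamma chain cytokine family: the ligands Il15 and Il7, the shared receptor chain Il2rg, the beta chain Il2rb, and the receptor chains Il2ra, Il15ra, Il7r and Il21r. They were taken by symbol from a deposited table of 19309 genes, and all 8 were found and had enough counts to be tested. The study is a mouse model of contact hypersensitivity (sensitisation, then challenge of the ear) in which ear skin of 3 C57BL/6 mice, 6 to 8 weeks old at selection, was profiled by RNA sequencing. The DNFB group is the left ear of each mouse, given 10 µL of 0.25% DNFB (2,4-dinitrofluorobenzene, a skin-sensitising hapten), and the vehicle group is the right ear of the same mouse, given the solvent of 80% acetone and 20% olive oil. Every animal, and so the source of every vehicle ear too, had first been sensitised with 25 µL of DNFB at 0.5%. The ear treatment started on day 6 and went on for 6 days. Vehicle ears are therefore skin of a sensitised animal with a challenged ear on the other side, and no ear of an unsensitised animal is among the 6 libraries.

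Cytokines of this family signal through receptors that share the gamma chain, which pairs with the kinase JAK3, while the partner chains pair with JAK1, and both activate STAT proteins. IL-2 and IL-15 share the beta chain as well and differ in their alpha chains, Il2ra and Il15ra, of which Il15ra also presents IL-15 on the surface of one cell to its neighbour. IL-7 is made by stromal and epithelial cells and keeps lymphocytes alive, and in skin IL-7 and IL-15 are known for sustaining resident memory T cells.

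The libraries held 19556800 to 20336900 estimated counts each. The share of genes whose count carried decimals was 56.3% and 58.4% in the DNFB ears of mice 2 and 3, 34.5% in that of mouse 1, and 32.7% to 32.9% in the vehicle ears. Levels are given as TPM (a share of all transcripts, scaled for gene length and library size), and changes are log2 fold changes of DNFB over vehicle fitted on the counts by edgeR's quasi-likelihood test, with p-values adjusted over all 15317 tested genes and called under 0.05. Of the genes tested, 25.9% were higher and 25.4% lower in DNFB ears, 51.3% in all, so a call alone is common in this comparison. With the mouse as a block these shares were 21.5% higher and 21.6% lower. The TPM of the 3 DNFB ears all lay above those of the 3 vehicle ears for 28.7% of the genes and all below for 32.4%.

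Of the 8 genes, 7 were higher in DNFB ears (Il21r, Il2rg, Il2rb, Il2ra, Il7r, Il15ra and Il15) and 1, Il7, was lower. The TPM of the groups did not overlap for any of the 8. The median log2 fold change over the 8 genes was 2.48, against -0.0156 over all genes tested. Il21r had 5, 6 or 7 counts in each vehicle ear and passed the filter on low counts through its DNFB ears, so the count of 7 is a description of the family. On the TPM scale mouse 3 was the lowest of the DNFB ears for 7 of the 8 genes, all but Il7, and the highest of the vehicle ears for all 8. The CPM scale has counts scaled to library size with TMM normalisation factors, and not to gene length. On it the lowest DNFB ear was instead that of mouse 1 for Il15ra. The highest vehicle ear on it was that of mouse 2 for Il7 and Il7r. These are whole-ear RNA levels, in which a change in the number of cells of a type and a change in RNA per cell cannot be told apart.

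**Figure D1:**
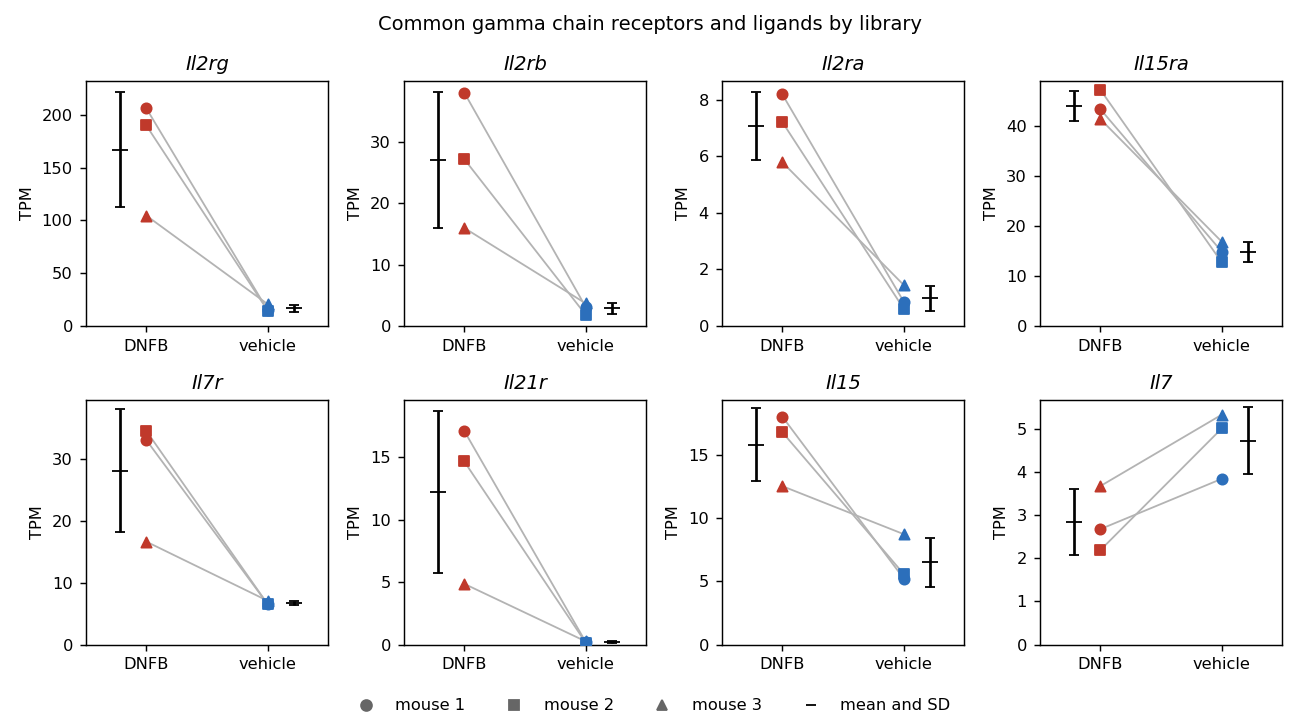
TPM of the 8 genes in each library, DNFB ears left and vehicle ears right in every panel, with a grey line joining the ears of one mouse and black bars for the mean and SD of 3 ears. All 3 lines slope down to the vehicle ear for 7 genes and up to it for Il7, and the DNFB ear of mouse 3 (triangle) is the lowest DNFB ear in every panel but that of Il7.

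Il2rg (Entrez gene 16186), the shared signalling chain, was on average the most abundant of the 8 transcripts in both groups and rose 10.2-fold. It had 206.38, 190.13 and 104.68 TPM in the DNFB ears of mice 1, 2 and 3, against 14.90, 14.65 and 20.69 TPM in their vehicle ears. The lowest DNFB ear was 5.06 times the highest vehicle ear, and the DNFB ear of mouse 3 lay well below the other DNFB ears. The fitted log2 fold change was 3.34 ± 0.27 (SE, adjusted p = 0.000183 by edgeR), and 389 of the 15317 genes tested, 2.54%, had a larger one.

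Il2rb (Entrez gene 16185), the beta chain used by IL-2 and IL-15, rose 9.72-fold. Its DNFB ears had 37.99, 27.16 and 15.96 TPM and its vehicle ears 3.10, 1.82 and 3.68 TPM in mice 1, 2 and 3. The groups were apart by more than 4-fold at their nearest ears, with a ratio of 4.34. The log2 fold change was 3.28 ± 0.34 (SE, adjusted p = 0.000435 by edgeR), and the difference in log2 CPM was 3.66, 3.70 and 2.32 within mice 1, 2 and 3.

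Il2ra (Entrez gene 16184) encodes the alpha chain CD25, which gives the IL-2 receptor its high affinity and is carried by regulatory and newly activated T cells. It rose 7.40-fold, to 8.19, 7.21 and 5.79 TPM in DNFB ears, against 0.86, 0.61 and 1.45 TPM in vehicle ears. Among the genes described it was on average the scarcest receptor chain in DNFB ears, where its range overlapped that of Il21r. On the log2 scale the fitted increase was 2.89 ± 0.28 (SE, adjusted p = 0.000360 by edgeR).

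Il15ra (Entrez gene 16169), the IL-15 alpha chain, rose by less and with the smallest error of the 8 genes, 2.87-fold. It measured 43.44, 47.32 and 41.45 TPM in DNFB ears and 14.90, 12.76 and 16.88 TPM in vehicle ears. The DNFB ear of mouse 3, which was low for most of the family, was nearly level with the others here, at -0.01 on the log2 CPM scale from the mean of mice 1 and 2, against -0.90 for Il2rg and -0.98 for Il2rb. Its log2 fold change was 1.52 ± 0.10 (SE, adjusted p = 0.000102 by edgeR).

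The stretches before the start sites are shown because the receptor chains rose together, and they were searched for 4 motifs chosen after the sequences and results had been seen. RefSeq's promoter table, on build GRCm38.p6 while the counts were made on GRCm39, held 6 windows of 300 bases for 5 of the 8 genes (Il2ra, Il15ra, Il21r, Il7r and Il2rg). The 250 bases before the start are shown for Il2rg (chrX:101268256-101268505, minus strand) and Il2ra (chr2:11642542-11642791, plus strand), and for Il15ra a 30-base stretch just after one of its starts (chr2:11705732-11705761, plus strand). Capitals mark an ETS core in Il2rg, overlapping matches to the NF-kappaB consensus in Il2ra, and an IRF core in Il15ra.
Il2rg: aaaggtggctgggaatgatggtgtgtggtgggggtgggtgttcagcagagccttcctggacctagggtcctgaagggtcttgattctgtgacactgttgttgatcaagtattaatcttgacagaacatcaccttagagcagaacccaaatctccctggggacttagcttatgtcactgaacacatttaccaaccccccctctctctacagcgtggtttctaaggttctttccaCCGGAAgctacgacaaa
Il2ra: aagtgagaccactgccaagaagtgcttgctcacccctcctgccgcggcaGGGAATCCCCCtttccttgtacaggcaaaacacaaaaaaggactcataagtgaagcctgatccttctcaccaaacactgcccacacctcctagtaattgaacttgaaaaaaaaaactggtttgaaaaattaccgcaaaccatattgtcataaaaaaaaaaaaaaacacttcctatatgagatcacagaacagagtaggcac
Il15ra: aagcaaAAGCGAAAgcgaatactccttagc

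Both strands of all 32851 windows of this length were searched. The ETS core (CCGGAA) was in 14.9% of all windows and in 2 of the 6 of the family, those of Il2rg and of the other Il15ra start. The IRF core (AANNGAAA) was in 23.9% of all windows and in 3 of the 6, both of Il15ra and that of Il2rg. The STAT element (TTCNNNGAA, which reads the same on both strands) was in 8.30% of all windows and in 1 of the 6, that of Il7r. The NF-kappaB consensus was in 8.46% of all windows and in 1 of the 6, that of Il2ra. With 6 windows these matches describe the letters and say nothing of what bound there.

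Il7r (Entrez gene 16197) encodes CD127, the IL-7 receptor chain that also serves the cytokine TSLP together with Crlf2. It rose 4.23-fold, with 33.13, 34.61 and 16.67 TPM in DNFB ears against 6.53, 6.53 and 7.08 TPM in vehicle ears. Vehicle ears lay close together, and the DNFB ear of mouse 3 lay well below the other DNFB ears. Its log2 fold change was 2.08 ± 0.27 (SE, adjusted p = 0.000961 by edgeR), the smallest increase among the receptor chains apart from Il15ra.

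Il21r (Entrez gene 60504), the receptor chain for IL-21, a cytokine of helper T cells, had the largest change of the 8 genes. It stood at 17.11, 14.66 and 4.86 TPM in DNFB ears and at 0.20, 0.15 and 0.25 TPM in vehicle ears. It was the scarcest of the 8 transcripts in vehicle ears, below every other gene there. In DNFB ears its range overlapped those of Il15, Il2ra, Il2rb and Il7r. Its log2 fold change was 5.96 ± 0.58 (SE, adjusted p = 0.000360 by edgeR), with 71 of the 15317 genes tested above it. The vehicle ears held 18 counts in all. The ratio of summed counts, scaled by the library totals, was 62.5 (exact 95% interval 39.4 to 106, counting error only). The deposited counts of Il21r, Il2ra and Il15ra carry decimals in all 6 libraries, as estimated counts can, and how these arose is not stated. The ratio of TPM was 85.6 in mouse 1, 97.7 in mouse 2 and 19.4 in mouse 3.

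Of the ligands, Il15 (Entrez gene 16168), which supports memory CD8+ T cells and natural killer cells, rose 2.42-fold. It measured 18.03, 16.80 and 12.53 TPM in DNFB ears and 5.22, 5.58 and 8.73 TPM in vehicle ears. The groups came nearest in mouse 3, which had the lowest DNFB ear and the highest vehicle ear, and its ratio of DNFB to vehicle CPM was 1.54, with 3.38 in mouse 1 and 2.79 in mouse 2. The log2 fold change was 1.27 ± 0.22 (SE, adjusted p = 0.00300 by edgeR), and the adjusted p was 0.0720 without both ears of mouse 2.

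Il7 (Entrez gene 16196) fell 1.62-fold and was the exception in the family. It had 2.68, 2.19 and 3.68 TPM in DNFB ears, against 3.85, 5.02 and 5.34 TPM in vehicle ears. The DNFB ear was the lower one in each of the 3 mice, with log2 CPM differences of -0.50, -1.23 and -0.43, but the highest DNFB ear lay just under the lowest vehicle ear. Its log2 fold change was -0.70 ± 0.23 (SE, adjusted p = 0.0395 by edgeR). The call was lost when any of 4 ears was left out: the DNFB ear of mouse 1 (-0.65, adjusted p = 0.0943 by edgeR) or of mouse 2 (-0.54, 0.122), or the vehicle ear of mouse 2 (-0.62, 0.124) or of mouse 3 (-0.63, 0.112). It was also lost without both ears of mouse 1 (adjusted p = 0.0970 by edgeR) or of mouse 2 (adjusted p = 0.294 by edgeR, -0.46).

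**Figure D2:**
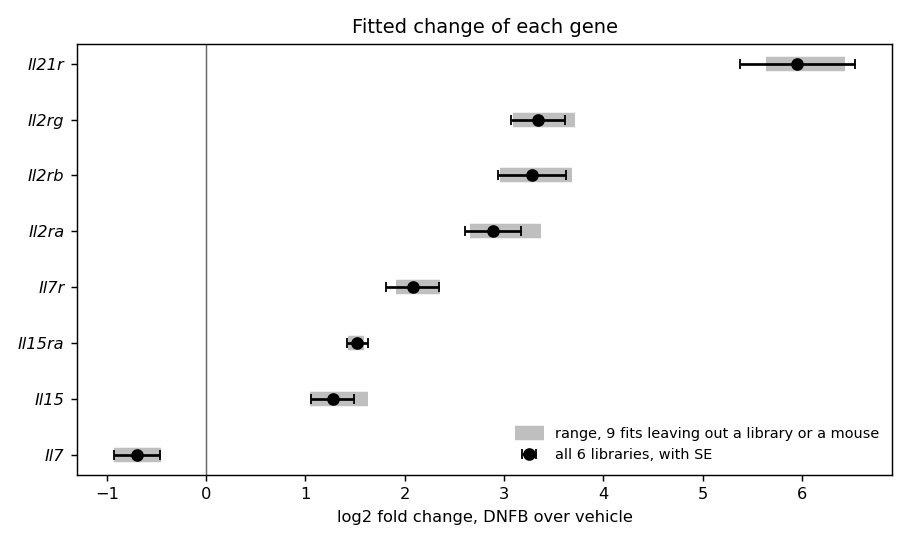
Log2 fold change of DNFB over vehicle ears for each gene, with its standard error (black) and the range over 9 fits that each left out 1 library or both ears of 1 mouse (grey). The estimate runs from -0.70 for Il7 to 5.96 for Il21r, and no grey bar crosses 0.

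Per length, the order of the transcripts differed between the groups. In DNFB ears it ran Il2rg, Il15ra, Il7r, Il2rb, Il15, Il21r, Il2ra and Il7, with means of 167, 44.1, 28.1, 27.0, 15.8, 12.2, 7.06 and 2.85 TPM. There Il2rg stood clear of Il15ra, Il15ra of Il7r and Il2ra of Il7, and the ranges of the neighbours between Il7r and Il2ra overlapped. In vehicle ears the order was Il2rg, Il15ra, Il7r, Il15, Il7, Il2rb, Il2ra and Il21r, with means of 16.7, 14.8, 6.71, 6.51, 4.74, 2.87, 0.973 and 0.2 TPM. Il2rg and Il15ra overlapped there, as did Il7r with Il15 and Il15 with Il7, and the other neighbours did not. Il7 was thus last in DNFB ears, while Il2rb, Il2ra and Il21r stood below it in vehicle ears.

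Ratios within a library show which chains moved by unequal amounts. For 12 ratios the log2 of the TPM ratio was compared by an exact two-sided permutation test over the 6 libraries, which cannot go below p = 0.1, or 0.15 when adjusted over the 12. The ratio of the beta to the gamma chain overlapped between the groups. Il2rb stood at 0.184, 0.143 and 0.153 of Il2rg in DNFB ears and at 0.209, 0.125 and 0.178 in vehicle ears, a log2 difference of -0.07 (exact permutation p = 0.9), whose sign turned without the DNFB ear of mouse 2 or the vehicle ear of mouse 1. Il2ra to Il2rb and Il2ra to Il2rg also overlapped between the groups, with log2 differences of -0.28 (exact permutation p = 0.4) and -0.35 (exact permutation p = 0.2). These values depend on what is added to each TPM before the ratio, 0.01 here. With 1 added, a value near the level of Il2ra in vehicle ears, the differences were -0.77 for Il2ra to Il2rb and -1.16 for Il2ra to Il2rg (exact permutation p = 0.1 each), and -0.39 for Il2rb to Il2rg (exact permutation p = 0.2).

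Il7r was lower relative to the shared chain, at 0.161, 0.182 and 0.159 of Il2rg in DNFB ears against 0.439, 0.446 and 0.343 in vehicle ears, without overlap. The log2 difference was -1.28 (exact permutation p = 0.1), and -1.45, -1.29 and -1.10 within mice 1, 2 and 3. Il21r was higher relative to it, at 0.0829, 0.0772 and 0.0465 of Il2rg in DNFB ears against 0.0141, 0.0109 and 0.0126 in vehicle ears, a log2 difference of 2.42 (exact permutation p = 0.1). The vehicle values of this ratio rest on 5 to 7 counts of Il21r, and with 1 added to each TPM the log2 difference was 0.10 (exact permutation p = 0.6). Between the ligands, Il15 was 6.71, 7.64 and 3.40 times Il7 in DNFB ears and 1.35, 1.11 and 1.63 times Il7 in vehicle ears, a log2 difference of 2.05 (exact permutation p = 0.1). Il15ra to Il15 overlapped between groups, at 2.41, 2.82 and 3.31 in DNFB ears and 2.85, 2.28 and 1.93 in vehicle ears (log2 difference 0.28, exact permutation p = 0.3), and the DNFB ear was lower in mouse 1 and higher in mice 2 and 3.

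Against the mean TPM of 13 T cell markers in the same library, Il2rg, Il2rb, Il2ra, Il7r and Il21r were each higher in every DNFB ear than in every vehicle ear. Il2rg was 9.26, 10.8 and 10.0 times that mean in DNFB ears and 3.16, 2.96 and 3.13 times in vehicle ears, a log2 difference of 1.70 (exact permutation p = 0.1). The log2 differences were 1.63 for Il2rb, 1.35 for Il2ra, 4.12 for Il21r and 0.42 for Il7r. With 1 added to each TPM those of Il21r and Il2ra were 1.88 and 0.62. For Il7r the groups were nearest, at 1.49, 1.96 and 1.60 times the mean in DNFB ears and 1.39, 1.32 and 1.07 times in vehicle ears. The p of these ratios, 0.1, is the smallest the design allows and does not pass a threshold of 0.05. The mean of the list weights its abundant genes, and all 5 chains are also made by cells other than T cells, among them natural killer cells for Il2rb.

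**Figure D3:**
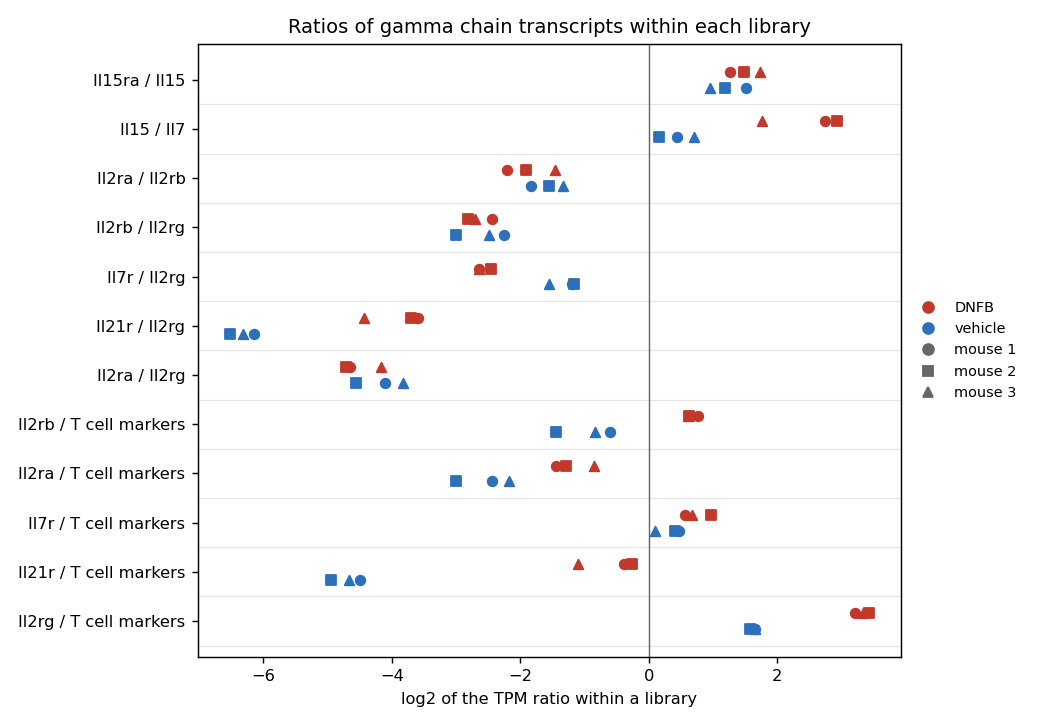
Log2 of the TPM ratio within each library for the 12 ratios, with 0.01 added to each TPM, DNFB ears in red drawn above vehicle ears in blue and the mice as symbols. The groups are apart for Il15 to Il7, Il7r to Il2rg, Il21r to Il2rg and the 5 ratios to T cell markers, and they overlap for the other 4.

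Among the other ligands and receptors of the family, together with Tslp and its chain Crlf2, 5 of 8 genes could be tested and 4 were higher (median log2 fold change 1.66). The share of all genes tested that were higher was 25.9%. Il4ra, the IL-4 receptor chain that pairs with Il2rg, averaged 224 ± 28.7 TPM in DNFB ears and 12.9 ± 2.91 TPM in vehicle ears (SD, n = 3 each), 4.14 ± 0.19 higher on the log2 scale (SE, adjusted p = 2.48e-05 by edgeR). On the TPM scale Il4ra was above Il2rg in each DNFB ear, at 235.22, 245.86 and 191.77 TPM in mice 1, 2 and 3. Il4, the T helper type 2 cytokine, had 171, 95 and 25 counts in the DNFB ears of mice 1, 2 and 3, against 2, 1 and 0 in their vehicle ears (adjusted p = 0.00246 by edgeR). Crlf2 rose by 1.66 and Tslp by 1.35 on the log2 scale, so the second receptor that uses Il7r had its partner chain and its ligand higher while Il7 was lower. Il9r, the IL-9 receptor chain, was at 0.253 ± 0.0493 TPM in DNFB ears and 0.193 ± 0.129 TPM in vehicle ears (SD, n = 3 each) and did not pass (adjusted p = 0.162 by edgeR).

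The ligands Il2, Il21 and Il9 did not pass the filter on low counts. Il2 had 7, 10 and 16 counts in the DNFB ears of mice 1, 2 and 3, against 1, 0 and 0 in their vehicle ears. Il21 had 5, 10 and 9 counts in DNFB ears, against 0, 0 and 1 in vehicle ears. For both, every DNFB ear was above every vehicle ear, and mouse 3, low for most receptor chains, was not the lowest DNFB ear. With no filter Il2 and Il21 were called higher by edgeR (adjusted p = 0.00526 and 0.00847), as by DESeq2's Wald test (adjusted p = 0.00220 and 0.00838), so that 6 of the 8 genes were then higher. Il9 had 0, 0 and 3 counts in DNFB ears and none in the vehicle ears, where a count of 0 allows up to 3, so no difference was detectable at this depth.

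Of 18 kinases, STATs, adaptors and phosphatases that act below these receptors, 16 were higher, 1 was lower and 1 missed the threshold (median 1.13 on the log2 scale). For all genes tested the shares were 25.9% higher and 25.4% lower. Jak3, the kinase bound to the gamma chain, averaged 17.3 ± 1.87 TPM in DNFB ears and 3.98 ± 1.02 TPM in vehicle ears (SD, n = 3 each), and rose by 2.13 ± 0.17 on the log2 scale (SE, adjusted p = 0.000173 by edgeR). Its partner Jak1 was higher by 0.67, Stat5a by 1.39 and Stat5b by 0.73 on the same scale. These 4 genes, and Pik3r1, were chosen after their values were seen. The largest changes were those of the tyrosine kinases Syk (3.36) and Lck (3.21) and of Pik3cd (3.07), the phosphoinositide 3-kinase subunit of lymphocytes and myeloid cells. The ubiquitous regulatory subunit Pik3r1 fell by 0.46, and Sos1, an exchange factor for Ras, did not pass (0.13, adjusted p = 0.461 by edgeR). Without both ears of mouse 2, 9 of the 18 were higher and none was lower, and the share of all genes called in that fit is not given here.

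Of 20 feedback inhibitors and genes known to respond to STAT5 in lymphocytes, 14 were higher, 2 were lower and 4 missed the threshold (median 1.27 on the log2 scale). The same shares of all genes tested, 25.9% higher and 25.4% lower, stand beside these counts. The suppressor Socs3 averaged 368 ± 96.4 TPM in DNFB ears and 19.6 ± 2.79 TPM in vehicle ears (SD, n = 3 each), 4.24 ± 0.23 higher on the log2 scale (SE, adjusted p = 4.85e-05 by edgeR). The cytokine Osm rose by 7.17 and the granzyme Gzmb by 7.03 on the log2 scale, and Ifng had 199, 217 and 187 counts in DNFB ears against 0, 0 and 1 in vehicle ears. Many of these genes respond to other cytokines as well, Socs3 among them. The 2 that fell were the survival gene Bcl2 (-0.75) and the cyclin Ccnd2 (-0.77), both named after their values were seen, while the survival gene Bcl2l1 (-0.10, adjusted p = 0.525 by edgeR) and Prdm1, a regulator of effector differentiation (0.18, adjusted p = 0.277 by edgeR), did not pass. Without both ears of mouse 2 no gene of this list was lower, and the share of all genes called in that fit is not given here.

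**Figure D4:**
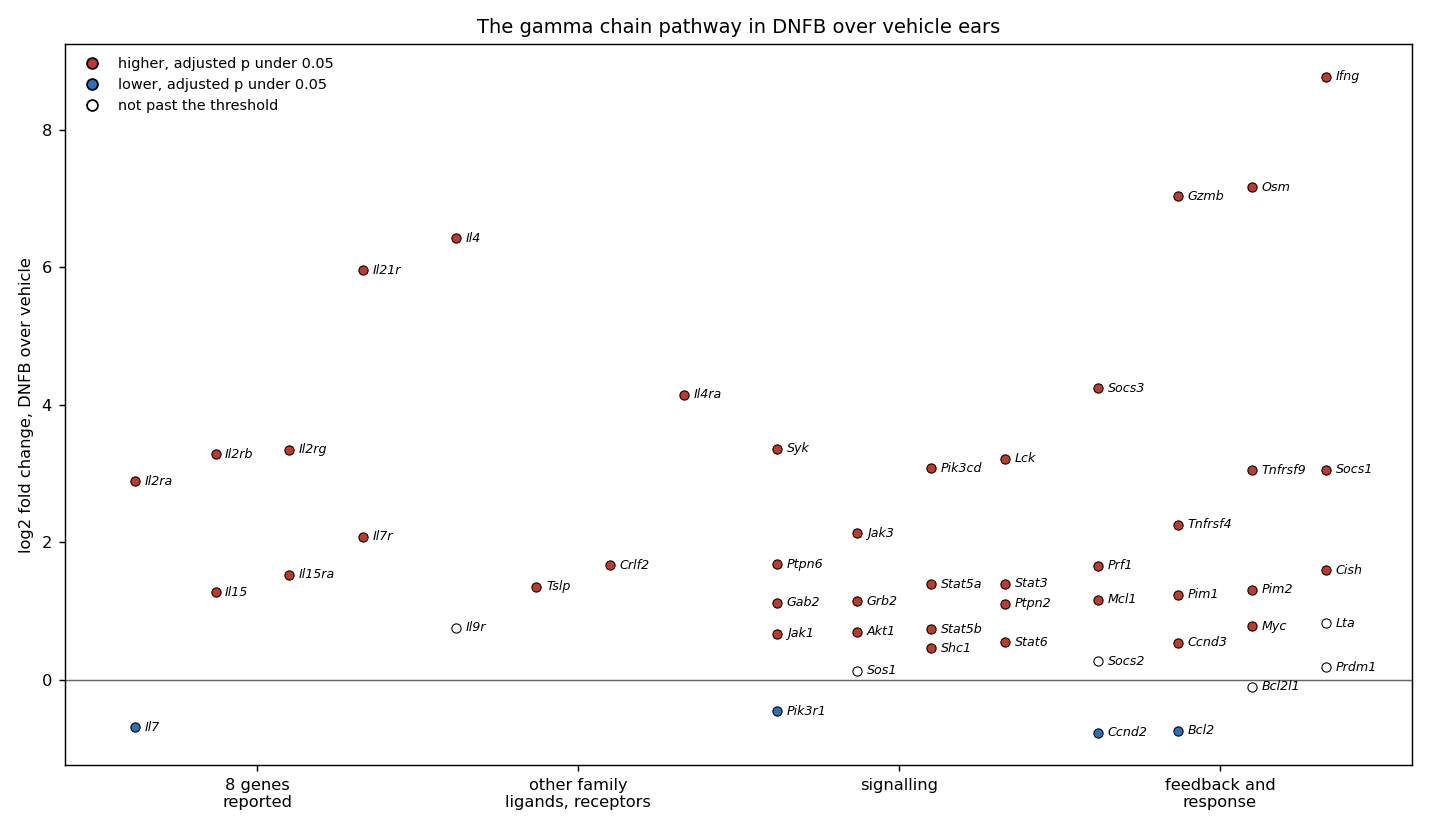
Log2 fold change of DNFB over vehicle ears for the 8 genes and the tested members of 3 lists, with 1 signalling gene not shown, filled red where higher and blue where lower at an adjusted p under 0.05 by edgeR, and open where the threshold was missed. Most points lie above 0, with Il7, Pik3r1, Bcl2, Ccnd2 and the open point of Bcl2l1 below it. Il4 and Ifng had 3 counts or fewer in all vehicle ears together, so their height depends on the fit and is no measured fold.

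Markers of the cells that carry these receptors were higher in DNFB ears too, where 25.9% of all genes tested were higher. Of 13 T cell markers 11 were higher, with none lower, and their summed TPM was 136 to 290 in DNFB ears and 61.2 to 85.9 in vehicle ears. Of 7 regulatory T cell markers 6 were higher, with summed TPM of 136 to 158 in DNFB ears and 35.9 to 54.1 in vehicle ears. Without the DNFB ear of mouse 2 or 3 or the vehicle ear of mouse 1 or 2, 5 were higher. All 8 tested markers of natural killer cells, of 9 listed, were higher (59.6 to 165 TPM in DNFB ears, 20.8 to 24.5 TPM in vehicle ears), and the untested one, their defining receptor Ncr1, had 17, 9 and 8 counts in DNFB ears and 0 in every vehicle ear. All 11 monocyte and macrophage markers were higher (4859 to 8006 TPM in DNFB ears, 1530 to 1806 TPM in vehicle ears), as were all 7 neutrophil markers (3106 to 6465 TPM in DNFB ears, 112 to 272 TPM in vehicle ears). In each of these 5 lists the lowest DNFB sum was that of mouse 3, which was also the lowest DNFB ear in TPM for 7 of the 8 genes. Cd6 was at 0 in a vehicle ear, as was Klre1. Eomes, Klre1, Il10 and Ly6g had 5 counts or fewer in each vehicle ear. They passed the filter on low counts through their DNFB ears and could hardly be called lower, so these counts of markers describe the lists. Single markers are named after their values were seen. The part of these cell types in the increases was not tested.

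Of 7 naive and circulating T cell genes 3 were higher (173 to 282 TPM in DNFB ears, 122 to 144 TPM in vehicle ears), and Tcf7, Lef1, Klf2 and Bach2 did not pass. Over all genes tested 25.9% were higher and 25.4% lower, and a count near these shares is no result about a cell type. Of the 7 markers of group 2 innate lymphoid cells 6 were tested, 3 higher and 3 lower (103 to 225 TPM in DNFB ears, 92.4 to 103 TPM in vehicle ears). Mast cell markers were higher in 5 of 7 cases (1302 to 1363 TPM in DNFB ears, 907 to 928 TPM in vehicle ears). Only 4 of 8 gamma delta T cell markers were analysed, 1 of them higher (16.8 to 22.9 TPM in DNFB ears, 9.86 to 22 TPM in vehicle ears), and only 4 of 7 B cell markers were tested, 2 of them higher (4.39 to 12.9 TPM in DNFB ears, 2.31 to 3.28 TPM in vehicle ears, with Ms4a1 at 0 in all of these). The gamma delta count was 0 without the DNFB ear of mouse 1 or 3 or the vehicle ear of mouse 1 or 2. It was 2 when the vehicle ear of mouse 3 was left out. The B cell count was 1 without the DNFB ear of mouse 1 or 2 or the vehicle ear of mouse 1 or 3.

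Beside the decrease of Il7, markers of cells known to make it moved as follows. The shares over all genes tested, 25.9% higher and 25.4% lower, apply to these counts too. Lymphatic endothelial markers fell in 3 of 5 cases (Prox1, Reln and Ccl21a), with a summed 491 to 578 TPM in DNFB ears and 688 to 839 TPM in vehicle ears. Lyve1 and Flt4 did not pass, with log2 fold changes of 0.17 and 0.05. Most of the lymphatic sum was Ccl21a, at 464 ± 34.2 TPM in DNFB ears and 709 ± 70.5 TPM in vehicle ears (SD, n = 3 each). Keratinocyte markers fell in 3 of 8 cases (Krt10, Krt15 and Krtdap), with none higher. They summed to 9879 to 19000 TPM in DNFB ears and 22280 to 26540 TPM in vehicle ears. Krt14, Krt1, Krt5 and Dsg3 did not pass, with log2 fold changes of 0.31, 0.33, 0.06 and 0.77, nor did Trp63 (-0.60). The abundant Krt14 averaged 5240 TPM in DNFB and 4200 TPM in vehicle ears, so the lower sum is not shared by all markers. Without the DNFB ear of mouse 1, Dsg3 was called higher. Fibroblast markers numbered 2 higher and 1 lower among 5, at 4974 to 5842 TPM in DNFB ears and 5851 to 6562 TPM in vehicle ears, and without any single library but the DNFB ear of mouse 3 the counts were 1 and 0. The DNFB ear of mouse 3 had the highest Il7, the highest lymphatic sum and the highest keratinocyte sum of the DNFB ears, but the lowest fibroblast sum. In the vehicle ears of mice 1, 2 and 3, Il7 was at 3.85, 5.02 and 5.34 TPM. The keratinocyte sums there ran the other way, at 26540, 23810 and 22280 TPM. The lymphatic sums (688, 806 and 839 TPM) and the fibroblast sums (5851, 6072 and 6562 TPM) there ran in the order of Il7. The part of these cell types in the decrease of Il7 was not tested. Blood endothelial markers were higher in 3 of 5 cases, and in 5 of 5 without the DNFB ear of mouse 3 (135 to 202 TPM in DNFB ears, 106 to 128 TPM in vehicle ears). Dendritic and Langerhans cell markers numbered 6 higher and 2 lower among 10 (142 to 189 TPM in DNFB ears, 162 to 189 TPM in vehicle ears). Their lower calls went to 0 without any single library but the DNFB ear of mouse 3, and 3 were higher without the vehicle ear of mouse 1 or 2.

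Across the 6 libraries, the profiles nearest to 3 of the genes were found among 12385 other genes by the root mean square difference of centred log2 CPM. Nearest to Il2rg were Itgb2, the beta chain of the leukocyte integrins (0.0167), Tnfrsf1b, a receptor for tumour necrosis factor (0.0641), and Lilra6, a leukocyte immunoglobulin-like receptor (0.0679). Itgb2 averaged 268 ± 87.8 CPM in DNFB ears and 26.2 ± 3.22 CPM in vehicle ears, against 158 ± 50.9 and 15.5 ± 2.13 CPM for Il2rg in DNFB and vehicle ears (SD, n = 3 each). Nearest to Il15 were Pacc1 (0.0469), Mxd3 (0.0593) and Syt13 (0.0752), and nearest to Il7 were Lin7a (0.0807), Casq2 (0.1) and Pmm1 (0.114). With 6 libraries in 2 groups, the measure is dominated by the difference between the groups.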

How the data were processed

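Whole ear skin RNA of 3 mice was captured with oligo(dT) beads and sequenced as 50-base single-end reads, per the labels' protocols. The submitters' processing notes name HISAT and GRCm39. The sources used here do not give the counting tool, its annotation or its use of strand, and overlapping or antisense genes may share counts. The authors deposited estimated counts, FPKM and TPM per gene and library, per the file headers, with group means that were not used. Estimated counts were rounded. Deposited TPM gave levels and ratios (0.01 added), and deposited FPKM an alternative.

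DNFB was tested against vehicle with edgeR 4.0.16 in R 4.3.3 (TMM, filterByExpr at a minimum count of 10, quasi-likelihood test, Benjamini-Hochberg over 15317 genes), without a block. The standard error is the absolute log2 fold change over the square root of F. Calls were tested on simulated data, in which few genes changed and the ears were not paired, unlike these data. The same mice gave both ears, so the ears are paired, although deviations of same-mouse libraries from their group means correlated at -0.027, -0.148 and -0.0463 over genes. P-values of the fit without a block cover the spread among the 3 ears of a group. They do not measure the spread of the change within a mouse. Alternatives were a block for the mouse, size factors and the Wald test of DESeq2 1.42.0, no filter, and leaving out libraries or mice (for the marker lists, chosen after seeing the data). The named pathway genes are, for each list, at most 4 called genes, by size of change, and at most 2 uncalled ones, by abundance, and 1 signalling gene is counted but not reported here by name. The 3 nearest profiles were sought for Il2rg, Il15 and Il7 among genes averaging 2 or more in log2 CPM, without predicted symbols. Members and lists were chosen with earlier results of these data known. Trdc, Trdv4, Tcrg-C1 and Tcrg-V5 were not analysed here. Intervals cover counting error only, since PCR reads are not independent molecules.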

Additional observations from a re-analysis of the deposited data

How the results depend on the processing

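All 8 genes kept their direction under every alternative run, and the mouse as a replicate block, DESeq2 size factors, DESeq2's Wald test and no filter on low counts changed no call of the 8. DESeq2's Wald test and the lack of a filter called 6 of the other ligands and receptors higher, Il2 and Il21 among them, in place of 4. With the block the adjusted p of Il7 was 0.0478 (log2 fold change -0.71) and that of Il15 0.0119 (1.28), both by edgeR. When libraries or mice were left out, the log2 fold change ran from 1.05 to 1.63 for Il15 and from -0.93 to -0.46 for Il7, whose adjusted p ran from 0.00457 to 0.294 by edgeR. The number of the 8 genes called lower then ran from 0 to 1. Of the other ligands and receptors 2 to 5 were called higher, of the signalling genes 9 to 17 higher and 0 to 1 lower, and of the response genes 0 to 2 lower, with the fewest calls without mouse 2. Each fit without a mouse had 2 ears a group, and without mouse 1 or 3 the signalling genes called higher were 13 and 17. Shares of all genes called in these fits are not given here. The log2 difference of the Il2rb to Il2rg ratio ran from -0.279 to 0.0913. With FPKM no ratio changed direction. With 1 added to each TPM the log2 difference of Il21r to Il2rg was 0.104 in place of 2.42, that of Il21r to the T cell markers 1.88 in place of 4.12, that of Il2ra to these markers 0.62 in place of 1.35, and those of Il2ra to Il2rb and to Il2rg were -0.767 and -1.16 in place of -0.283 and -0.353. Low counts limit Il21r in vehicle ears and the ligands Il2, Il9 and Il21.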
